A study of Mus musculus with 3 samples.

Results

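Macrophages that carry the complement genes C1qa, C1qb and C1qc were a rare population in lung lavage. They made up 75 of the 12297 cell barcodes that passed the quality filter in 3 droplet single-cell RNA-seq libraries of mouse airspace cells. A member had at least 5 UMIs (unique molecular identifiers, 1 per captured RNA molecule) of the 3 C1q genes together, and these were at least 0.05% of its UMIs. The barcode also had at least 500 UMIs, at least 300 genes and at most 10% mitochondrial UMIs. C1q UMIs chose these cells, so levels of the 3 C1q genes are a description and carry no test.

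The mice were wild-type C57BL/6J animals, 12 weeks old. One group breathed filtered air, one 1 ppm ozone and one 1.5 ppm ozone, each for 3 hours, and lavage of the right lung lobes was collected 22 to 24 hours after exposure. Cells of 3 to 4 mice were pooled per group into 1 library, unsorted, so mice cannot be told apart and no p-value is given between doses. The libraries held 3233 to 7269 barcodes and 42825676 to 95403078 UMIs. The C1q-expressing cells numbered 26 after filtered air, 6 after 1 ppm and 43 after 1.5 ppm, with 255838, 85921 and 335238 UMIs in all. 1 cell held 29667 of the 85921 UMIs at 1 ppm, so values of that dose rest largely on it. Between libraries, 18 barcodes were shared, 1 of them a C1q-expressing cell.

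C1q is the recognition part of the classical complement pathway. It is built from the products of 3 genes, and unlike most complement proteins, which the liver makes, it comes mainly from tissue macrophages and some dendritic cells. It binds antibody complexes, dying cells and debris and marks them for uptake. In the lung, C1q genes are known from interstitial macrophages, which live in the tissue between airway and alveolus, while the alveolar macrophages of the airspace carry little of them.

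The 3 C1q genes lie side by side on mouse chromosome 4 and are known to be transcribed together, and class II antigen presentation genes stood at different levels after the 3 exposures. The promoter windows of a pair from each group are shown for that reason, each from 250 bases before to 50 bases after the transcription start. They come from RefSeq on build GRCm38.p6, which held no C1qa window and is not the GRCm39 build of the counts. Capitals mark 3 motifs on either strand. GAGGAA, which reads as TTCCTC when it lies on the other strand, is the core of sites for ETS factors such as PU.1. TGCTGA, which then reads as TCAGCA, is a half-site for MAF factors. ATTGG, which then reads as CCAAT, is the CCAAT box. In H2-Eb1 the TGCTGA and the first ATTGG overlap.
C1qb, chr4:136886151-136886450, minus strand: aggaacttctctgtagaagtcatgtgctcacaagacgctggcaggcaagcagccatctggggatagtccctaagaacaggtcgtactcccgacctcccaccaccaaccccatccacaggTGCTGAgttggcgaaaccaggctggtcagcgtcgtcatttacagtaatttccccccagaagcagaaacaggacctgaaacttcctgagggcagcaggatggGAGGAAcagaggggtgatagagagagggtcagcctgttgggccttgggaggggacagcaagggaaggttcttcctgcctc
C1qc, chr4:136892865-136893164, minus strand: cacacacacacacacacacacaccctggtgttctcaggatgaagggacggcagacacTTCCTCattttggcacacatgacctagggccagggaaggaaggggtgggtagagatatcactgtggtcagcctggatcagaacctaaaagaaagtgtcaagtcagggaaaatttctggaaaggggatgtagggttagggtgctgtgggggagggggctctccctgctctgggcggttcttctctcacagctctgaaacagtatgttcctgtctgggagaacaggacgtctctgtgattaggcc
H2-Aa, chr17:34287774-34288073, minus strand: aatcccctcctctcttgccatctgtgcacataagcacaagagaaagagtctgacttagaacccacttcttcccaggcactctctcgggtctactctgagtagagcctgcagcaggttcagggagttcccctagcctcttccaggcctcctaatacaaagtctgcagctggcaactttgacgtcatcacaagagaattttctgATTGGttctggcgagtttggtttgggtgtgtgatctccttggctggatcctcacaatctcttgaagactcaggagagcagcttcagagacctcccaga
H2-Eb1, chr17:34305617-34305916, plus strand: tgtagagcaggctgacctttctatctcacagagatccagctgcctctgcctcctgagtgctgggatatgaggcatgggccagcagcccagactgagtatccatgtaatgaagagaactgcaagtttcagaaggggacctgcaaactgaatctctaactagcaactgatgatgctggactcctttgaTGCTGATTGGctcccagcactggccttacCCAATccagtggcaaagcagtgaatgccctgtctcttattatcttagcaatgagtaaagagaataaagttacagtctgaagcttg
Of 32851 such windows, 28.3% held GAGGAA, 19.5% TGCTGA and 37.4% ATTGG, each on either strand. The C1qb window held 1 GAGGAA and 1 TGCTGA, and the C1qc window 1 GAGGAA, read on the other strand. A match here is a description of the letters and not a shown site.

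C1q RNA was concentrated in few barcodes. No C1q UMI was found in 3427 of 3479 barcodes after filtered air, 2230 of 2241 after 1 ppm and 6513 of 6577 after 1.5 ppm. Barcodes with 12 or more numbered 23, 5 and 36. The lowest member held 6, 8 and 5 C1q UMIs in the 3 libraries, and the highest barcode outside held 4, 1 and 11, the last because 11 UMIs were under 0.05% of its total. Members thus stood apart from the bulk of barcodes, with few near the threshold.

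The median member carried 33.5 C1q UMIs after filtered air, 54.5 after 1 ppm and 31 after 1.5 ppm, or 0.519%, 0.5% and 0.446% of its UMIs. All 3 genes were found in 69 of the 75 cells. C1qa, the A chain, stood at 2591, 2235 and 2726 CPM (UMIs of a gene per 1e6 UMIs summed over the class) after filtered air, 1 ppm and 1.5 ppm. C1qb stood at 1458, 1606 and 1220 CPM and C1qc at 1434, 1594 and 1560 CPM. Across the 75 cells, which share their libraries and differ in depth, Spearman's rho was 0.83 between C1qa and C1qb and 0.92 between C1qa and C1qc.

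As a background for free RNA, barcodes with 3 or more of 6 alveolar macrophage genes (Marco, Siglecf, Krt79, Ear2, Atp6v0d2, Bhlhe41) and outside the C1q-expressing class held a C1q UMI in 0.712% of 3232 barcodes after filtered air, 0.142% of 2114 after 1 ppm and 0.201% of 5474 after 1.5 ppm. With the C1q-expressing cells among them, the shares were 0.865%, 0.236% and 0.328%. Without those cells their median depths were 14022, 16039.5 and 13386.5 UMIs, above those of the members (9955.5, 11877 and 6746 UMIs). No barcode with 2 or more T cell genes (12, 4 and 52) and none with 3 or more neutrophil genes (1, 10 and 138) held one. Their median depths were lower, at 3643, 6753 and 3897 UMIs for T cell genes and 2424, 2954 and 2253.5 UMIs for neutrophil genes. Being few and shallow, these barcodes cannot show whether their background was lower.

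C1q-expressing cells were 0.747% of filtered air cells (26 of 3479, exact Clopper-Pearson 95% interval 0.489 to 1.09%), 0.268% of 1 ppm cells (6 of 2241, 0.0983 to 0.582%) and 0.654% of 1.5 ppm cells (43 of 6577, 0.474 to 0.880%). All such intervals cover counting error only. The 1 ppm share was the lowest of the 3, and its interval overlapped the interval of both other libraries.

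The label of macrophage was checked against markers. Csf1r, the receptor for the growth factor CSF1 on which most macrophages depend, had a UMI in 24 of 26, 6 of 6 and 35 of 43 cells. When every cell was thinned to 2000 UMIs, it was found in 75%, 33.3% and 48.8% of C1q-expressing cells, against 11%, 14.6% and 11.7% of alveolar macrophages and 3.03%, 0% and 3.7% of cells with dendritic markers. Thinning left out 2, 0 and 2 C1q-expressing cells, 11, 6 and 45 alveolar macrophages and 0, 2 and 7 cells with dendritic markers as too shallow. Unthinned, Csf1r was found in 92.3%, 100% and 81.4% of C1q-expressing cells, against 52.8%, 64.1% and 52.8% of alveolar macrophages and 12.1%, 15% and 16.4% of cells with dendritic markers. Lyz2, the lysozyme of macrophages and monocytes, was found in all 75 cells, at 203 to 30741 CPM per cell. It was also abundant in the alveolar macrophages of each library, and the part of free RNA in low values was not tested. Markers of B cells summed to 3.91, 11.6 and 0 CPM, and those of eosinophils, mast cells and basophils had no UMI. T and NK cell markers summed to 242, 46.6 and 137 CPM, with 13, 15 and 12 of 16 at 0, and most of it was Il7r, the interleukin 7 receptor gene (199, 46.6 and 116 CPM). Neutrophil markers summed to 70.4, 116 and 65.6 CPM, with 9, 9 and 10 of 12 at 0. Most of that was Csf3r, the receptor for the growth factor G-CSF, at 58.6, 93.1 and 56.7 CPM in C1q-expressing cells, against 31.9, 23.9 and 15.95 CPM in alveolar macrophages. It was the measured neutrophil marker in both comparisons described next and was called higher in C1q-expressing cells in each. The 75 cells therefore carried macrophage markers beside some Il7r and Csf3r.

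Not every marker of tissue macrophages was high enough to be tested. The tissue and interstitial macrophage list held 24 genes, and 5 of them, including Folr2, Lyve1 and Cd163, which mark a perivascular type, were under 20 CPM on average over the classes. This average includes alveolar macrophages, so it does not mean absence. In C1q-expressing cells, 1, 3 and 0 of the 24 genes had no UMI after filtered air, 1 ppm and 1.5 ppm. Of the 6 alveolar macrophage genes, under 3 were found in 61 of the 75 cells and 3 or more in 14 (5, 2 and 7 cells). Those 14 had a median of 12328.5 UMIs, against 7353 in the 61. Whether they are doublets of both kinds was not tested.

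Alveolar macrophages, the resident phagocytes that clear surfactant and inhaled particles, were the first comparison. They had 3 or more of the 6 genes and no C1q UMI, and numbered 3209, 2111 and 5463. UMIs were summed per class and library and compared with edgeR's quasi-likelihood test with Benjamini-Hochberg adjustment, with library as a block, over 6852 genes of at least 20 CPM on average. C1q-expressing cells had 896 genes higher (13.1%) and 865 lower (12.6%), together 25.7%, at an adjusted p under 0.05. Without the filtered air library, 525 and 513 were called. The 3 libraries differ in dose, and the test asks for the average difference between the cell kinds over them. A call does not require the same direction in each library.

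Growth factor receptors and regulators of macrophages divided. Of 24, 23 were measured, 10 higher and 4 lower, with a median log2 difference of 0.43. Of the 23, 4 reached 20 CPM in C1q-expressing cells alone and 1 in alveolar macrophages alone. Maf, a transcription factor of tissue macrophages, stood at 192, 128 and 122 CPM in C1q-expressing cells of the 3 libraries, against 1.09, 0.698 and 1.20 CPM in alveolar macrophages. The groups did not overlap, which held for 39.5% of all genes tested, and the log2 difference was 7.20 (SE 0.51, edgeR adjusted p = 1.8e-11). C3ar1, the receptor for the complement fragment C3a, stood at 309, 349 and 316 CPM against 0.329, 0.403 and 0.712 CPM (9.35, SE 0.30). Both genes were therefore near 0 in alveolar macrophages and present at every dose in C1q-expressing cells.

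Apoe, the apolipoprotein with which macrophages export cholesterol, stood at 4800, 1839 and 6977 CPM in C1q-expressing cells and 20.4, 41.7 and 24.1 CPM in alveolar macrophages. The log2 difference was 7.30 (SE 0.38, edgeR adjusted p = 4.3e-14), and the groups did not overlap. At 1 ppm, 1 cell held 90.5% of the Apoe UMIs. Trem2, a lipid-sensing receptor, stood at 555, 896 and 600 CPM against 34.4, 35.4 and 40.3 CPM (log2 difference 4.19, SE 0.19). Ms4a7, a membrane protein of tissue macrophages, stood at 399, 396 and 355 CPM against 9.14, 8.40 and 6.71 CPM (5.61, SE 0.20). Both differed far more between the cell kinds than among the libraries.

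**Figure D1:**
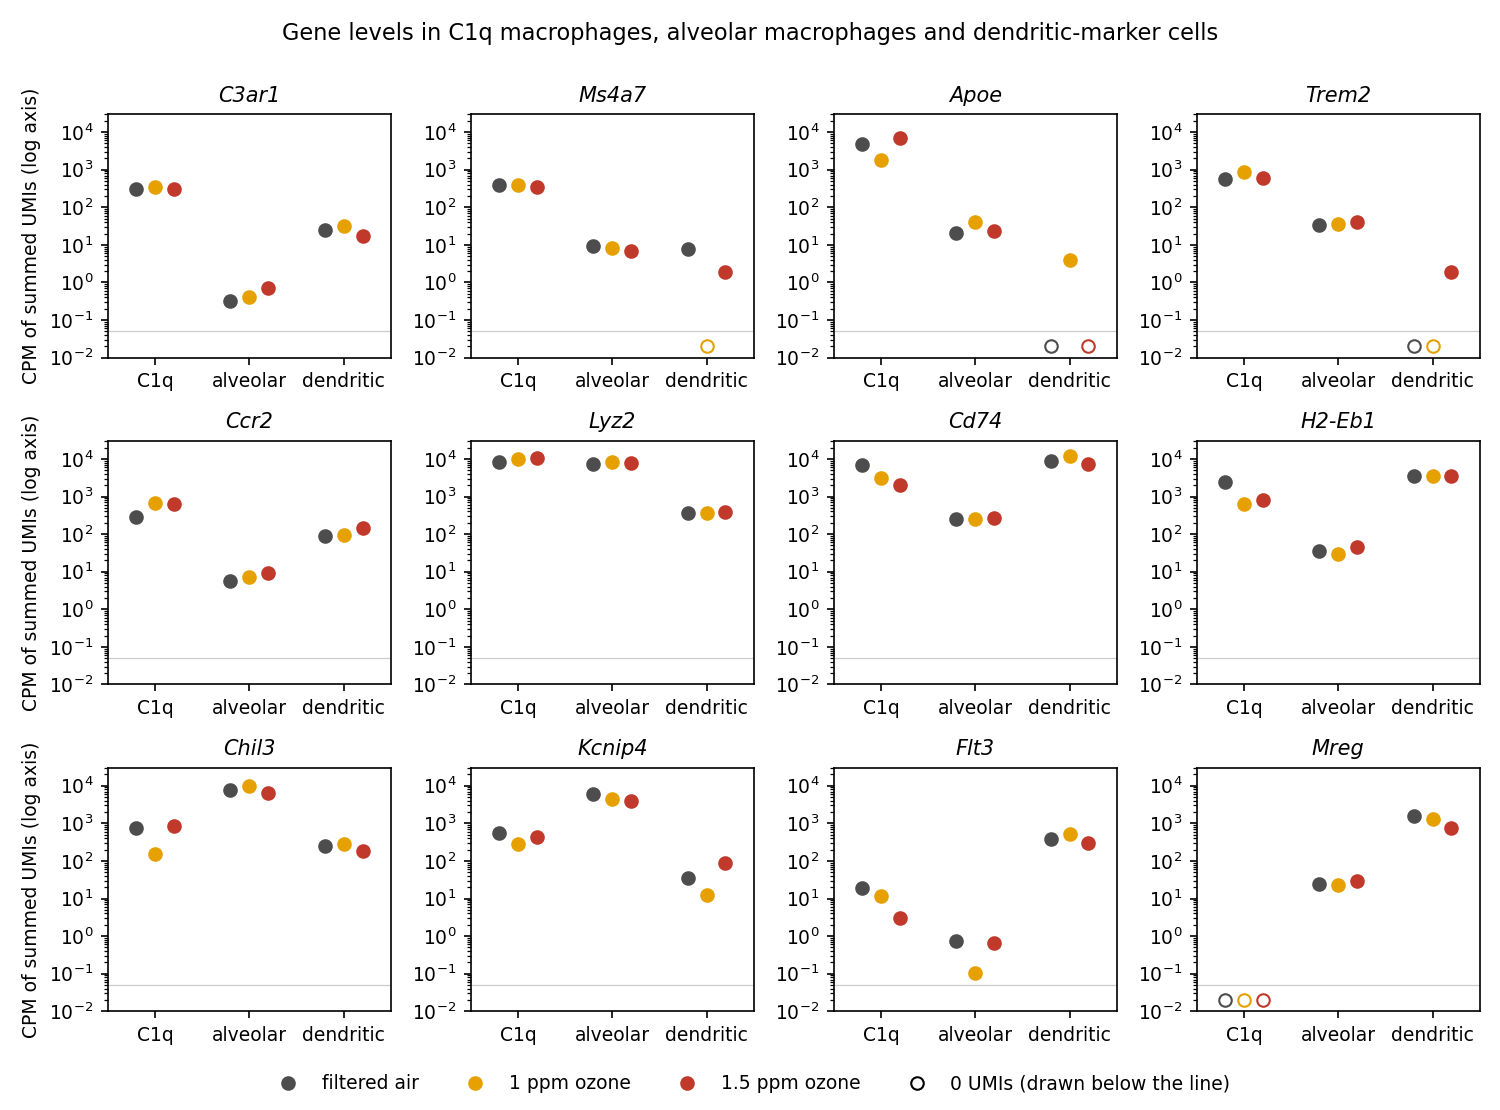
Levels of 12 genes in C1q-expressing macrophages, alveolar macrophages and cells with dendritic markers, as CPM of the summed UMIs on a log axis, 1 point per library. C3ar1, Ms4a7 and Trem2 are highest in C1q-expressing cells in each library, Cd74 and H2-Eb1 lie between alveolar macrophages and dendritic-marker cells, and Lyz2 is alike in both macrophage kinds.

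Of the 24 tissue macrophage genes, 19 were measured, 16 were higher and 1 lower, with a median log2 difference of 4.6, against -0.0004 over all genes tested. 10 of the 19 reached 20 CPM in C1q-expressing cells alone and so could hardly go the other way. The lower member was Mrc1, the mannose receptor, at 637, 687 and 516 CPM against 1385, 1240 and 1043 CPM (log2 difference -0.98, SE 0.17, edgeR adjusted p = 7.7e-05). Stab1, a scavenger receptor, was at 89.9, 46.6 and 89.5 CPM against 0, 0.0268 and 0.0565 CPM. The fractalkine receptor gene Cx3cr1, at 46.9, 105 and 200 CPM against 1.36, 2.36 and 1.83 CPM, was likewise higher (5.93, SE 0.53).

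Monocyte genes divided. Of 18, 8 were measured, 6 higher and 2 lower, and 5 of the 8 reached 20 CPM in C1q-expressing cells alone. Ccr2, the chemokine receptor that brings monocytes out of the blood, stood at 285, 687 and 641 CPM against 5.65, 7.36 and 9.24 CPM (log2 difference 6.12, SE 0.21, edgeR adjusted p = 5.5e-18). S100a4, a calcium-binding protein, stood at 500, 838 and 403 CPM against 11.3, 28.3 and 18.1 CPM (4.97, SE 0.21). Classical monocyte genes such as Ly6c2 and Plac8 did not reach the level needed for a test.

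Antigen presentation genes were higher as a group. Class II molecules display peptides of engulfed proteins to T cells, and 9 of the 13 listed genes were measured, all 9 higher. Their median log2 difference was 3.77, and 2 of the 9 reached 20 CPM in C1q-expressing cells alone. Cd74, the invariant chain that guards the peptide groove, stood at 6758, 3142 and 2067 CPM against 259, 255 and 276 CPM (3.77, SE 0.25, edgeR adjusted p = 4.4e-12). H2-Eb1, a beta chain, stood at 2369, 628 and 817 CPM against 36.2, 29.9 and 46.7 CPM (4.93, SE 0.28). Cd86, a costimulatory ligand for T cells, was at 246, 221 and 212 CPM against 10.5, 9.99 and 13.4 CPM (4.34, SE 0.24). Cd74 and H2-Eb1 varied several-fold among the C1q-expressing cells of the 3 libraries, while Cd86 hardly did.

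Other complement genes followed no single direction: 10 of 20 were measured, 4 higher and 2 lower. Of the 10, 4 reached 20 CPM in C1q-expressing cells alone, Itgam among them, and 1 in alveolar macrophages alone. Itgam, the alpha chain of complement receptor 3, stood at 102, 209 and 280 CPM against 1.34, 0.966 and 2.18 CPM (log2 difference 6.98, SE 0.40, edgeR adjusted p = 2.7e-13), and Itgax, the alpha chain of complement receptor 4, was lower at 145, 116 and 98.4 CPM against 266, 264 and 225 CPM (-1.03, SE 0.21). Chemokine genes had 10 of 21 measured, 9 higher and 1 lower, all 9 of them reaching 20 CPM in C1q-expressing cells alone. Cxcl16, a membrane-bound chemokine, stood at 332, 338 and 251 CPM against 3.10, 3.25 and 4.08 CPM, and the lower member, Ccl6, at 993, 1408 and 1548 CPM against 3056, 3291 and 2908 CPM. The chemokine list thus held both genes nearly absent from alveolar macrophages and one abundant there.

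Most genes of the degradative machinery were present in both kinds of macrophage. Of 22 lysosome genes 21 were measured, 11 higher and 3 lower, with a median log2 difference of 0.73. Lgmn, an asparagine-cutting protease, stood at 860, 1164 and 886 CPM against 221, 257 and 173 CPM (2.19, edgeR adjusted p = 1e-10), and the collagen-degrading cathepsin Ctsk was lower at 78.2, 23.3 and 89.5 CPM against 342, 501 and 499 CPM. Lyz2 stood at 8208, 9939 and 10718 CPM against 7193, 8380 and 7743 CPM, with overlapping groups and an edgeR adjusted p of 0.14. Mmp12, the macrophage elastase, was higher at 367, 268 and 468 CPM against 6.37, 5.53 and 5.38 CPM, and the matrix gene Fn1 at 817, 1280 and 1310 CPM against 281, 512 and 500 CPM.

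Genes of the alveolar macrophage program were low. Of 27 markers that played no part in choosing the cells, 26 were measured, none higher and 25 lower, with a median log2 difference of -3.22. 8 of them reached 20 CPM in alveolar macrophages alone. Chil3, a chitinase-like secreted protein, stood at 731, 151 and 874 CPM against 7650, 9546 and 6235 CPM (-3.66, SE 0.31, edgeR adjusted p = 4.1e-10). Pparg, the nuclear receptor that directs alveolar macrophage development, stood at 164, 175 and 143 CPM against 824, 553 and 552 CPM (-2.00, SE 0.21). Lpl, lipoprotein lipase, stood at 305, 314 and 301 CPM against 2338, 2532 and 1279 CPM. In each of the 3 genes every library of C1q-expressing cells lay below every library of alveolar macrophages.

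**Figure D2:**
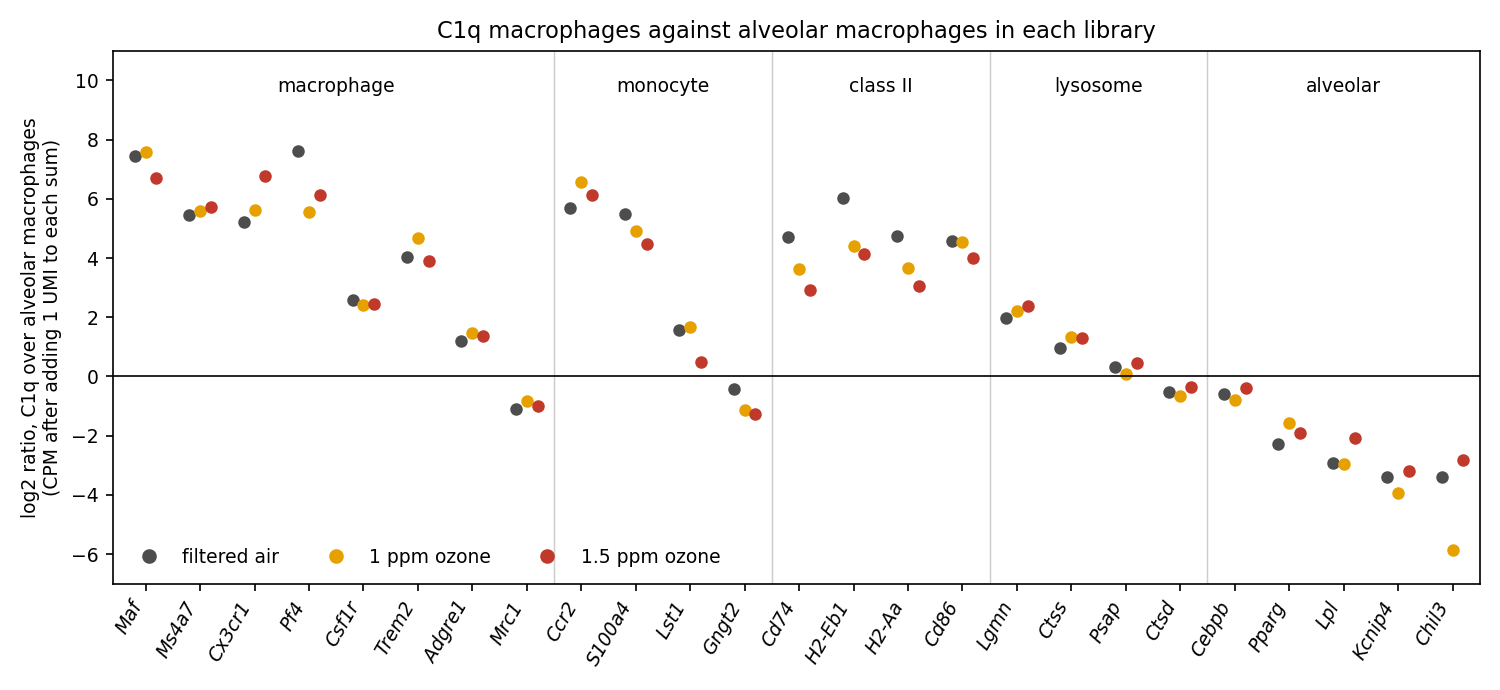
Log2 ratio of C1q-expressing over alveolar macrophages in each library, from CPM after adding 1 UMI to each sum, for genes grouped by role, 1 point per library. Macrophage, monocyte and class II genes lie above 0 apart from Mrc1 and Gngt2, alveolar macrophage genes lie below 0, and lysosome genes lie near or above 0 apart from Ctsd.

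Ranked by the smallest difference in any library, the 15 higher genes of at least 100 CPM were St18, Mgl2, C3ar1, Blnk, Tmem176b, Pmp22, Rnf150, Fgf13, Slamf7, Gpr183, Lat2, Tmem176a, Cpq, Adam19 and Gas7. St18, a zinc finger transcription factor, stood at 211, 140 and 191 CPM against 0.103, 0.0268 and 0.0904 CPM. Fgf13, a fibroblast growth factor relative that stays inside the cell, stood at 661, 1315 and 826 CPM against 1.97, 1.83 and 3.12 CPM. Blnk, an adaptor of immune receptor signalling best known from B cells, stood at 176, 361 and 137 CPM against 0.0616, 0.242 and 0.316 CPM. The 15 lower genes were Egfem1, Erc2, Cracd, Kcnn3, Ms4a8a, Patj, Ly75, Fabp1, Tc2n, Plet1, Kcnip4, Cidec, Clmn, Fpr1 and Adarb1. Kcnip4, a potassium channel-interacting protein, stood at 567, 279 and 436 CPM against 6001, 4490 and 4020 CPM. Cidec, a lipid droplet protein, stood at 15.6, 0 and 11.9 CPM against 218, 169 and 130 CPM.

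Cell cycle genes were lower than in alveolar macrophages. The 22 genes of G2 and M phase summed to 78.2, 11.6 and 56.7 CPM (20, 1 and 19 UMIs) in C1q-expressing cells, against 620, 565 and 1349 CPM in alveolar macrophages. The proliferation marker Mki67 had a UMI in 1 of 26, 0 of 6 and 2 of 43 cells. 10 of the 22 genes were measured, all 10 lower, and all 10 reached 20 CPM in alveolar macrophages alone. The 20 genes of S phase, in which DNA is copied, summed to 289, 256 and 262 CPM (74, 22 and 88 UMIs) in C1q-expressing cells, against 738, 687 and 1243 CPM in alveolar macrophages and 137, 161 and 209 CPM in the dendritic-marker cells described below. Of these, 8 were measured, none higher and 7 lower, and 5 reached 20 CPM in alveolar macrophages alone. S phase genes were thus present in C1q-expressing cells, below alveolar macrophages.

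Genes of stress and stimulation divided by list. Immediate early genes, which cells switch on within minutes of a stimulus or of handling, had 16 of 18 measured, 13 higher and none lower. Their median log2 difference was 1.44, but 4 of the 16, Egr1 among them, reached 20 CPM in C1q-expressing cells alone. Egr1 stood at 278, 198 and 125 CPM against 2.42, 2.23 and 3.12 CPM. Of 19 Nrf2 and oxidative stress genes 16 were measured, none higher and 9 lower, with a median of -0.69. Of these 16, 2 reached 20 CPM in alveolar macrophages alone. Gsr, glutathione reductase, stood at 62.5, 23.3 and 62.6 CPM against 430, 430 and 471 CPM (log2 difference -2.97, SE 0.25, edgeR adjusted p = 5.7e-10). Mt1, a metallothionein, was likewise lower, at 227, 198 and 158 CPM against 1287, 539 and 465 CPM. Efferocytosis genes, with 13 of 20 measured, had 3 higher and 3 lower, targets of the sterol receptor LXR, with 14 of 15, had 5 and 6, and scavenger receptors, with 19 of 21, had 8 and 6.

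Dendritic cells also carry class II, so cells with dendritic markers were the second comparison. These had no C1q UMI, at least 2 of Flt3, Zbtb46, Ccr7, Xcr1, Clec9a, Cd209a, Fscn1 and Ccl22 and under 3 of the 6 alveolar macrophage genes, and numbered 33, 20 and 61. Some dendritic cells carry C1q, but this rule left such cells out. The comparison therefore cannot show whether any C1q-expressing cell is a dendritic cell that carries C1q. Only the filtered air and 1.5 ppm libraries entered, because 1 ppm had 6 C1q-expressing cells. Of 6633 genes, 862 were higher in C1q-expressing cells (13%) and 1004 lower (15.1%), together 28.1%, by edgeR's quasi-likelihood test at an adjusted p under 0.05. Higher genes were thus 46.2% of the calls. Scaled by totals alone, 1262 were higher and 854 lower, so that 59.6% were higher, with the median of all genes at a log2 difference of 0.20. DESeq2 called 291 and 391.

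C1q-expressing cells carried macrophage genes that were near or at 0 in dendritic-marker cells. Apoe, with 3567 UMIs in C1q-expressing cells and none in dendritic-marker cells, was at least 1850-fold higher against a floor of 3 UMIs over both libraries. Colec12, a scavenger collectin, was at least 53.4-fold higher and Pf4, a platelet-type chemokine, at least 50.3-fold. Trem2 stood at 555 and 600 CPM after filtered air and 1.5 ppm, against 0 and 1.90 CPM, and Fn1 at 817 and 1310 CPM against 5.08 and 5.70 CPM. Igf1, a growth factor, stood at 324 and 361 CPM against 0 and 1.90 CPM, and Mmp12 at 367 and 468 CPM against 2.54 and 3.80 CPM. Of 22 lysosome genes 21 were measured, 20 higher and none lower, with a median log2 difference of 2.15 against 0.008 over all genes. Of 21 scavenger receptors 16 were measured and 15 were higher, but 7 of the 16 reached 20 CPM in C1q-expressing cells alone. With DESeq2 the calls of Colec12 and Pf4, both without a UMI in dendritic-marker cells, were lost (adjusted p = 0.20 and 0.21).

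Most dendritic genes and most class II genes were lower. Class II had 11 of 13 measured, none higher and 10 lower, with a median log2 difference of -1.51. Of these 11, 2 reached 20 CPM in dendritic-marker cells alone. Cd74 stood at 6758 and 2067 CPM in C1q-expressing cells against 8624 and 7153 CPM in dendritic-marker cells (-1.26, SE 0.21, edgeR adjusted p = 9.5e-05), and H2-Eb1 at 2369 and 817 CPM against 3432 and 3550 CPM (-1.51, SE 0.24). Summed over the class, C1q-expressing cells thus lay between alveolar macrophages and dendritic-marker cells in Cd74 and H2-Eb1. Single cells spread far more widely, with Cd74 from 0 to 32679 CPM per cell after filtered air. The sums are therefore not the level of a typical cell. Of 18 conventional dendritic genes 11 were measured, 1 higher and 8 lower, with a median log2 difference of -2.17. In that list 3 of the 11 reached 20 CPM in dendritic-marker cells alone. Of 14 migratory dendritic genes 11 were measured, all 11 lower, and 6 of them reached 20 CPM in dendritic-marker cells alone. The list marks dendritic cells on their way to lymph nodes, and its member Relb, an NF-kB subunit, stood at 31.3 and 38.8 CPM against 576 and 432 CPM. 8 genes ranked as lowest by the same rule as above had no UMI in C1q-expressing cells: Stat4 was at least 215-fold lower, Mreg 212-fold, Nr4a3 179-fold, Ccl5 156-fold, Mir155hg 106-fold, Slc22a23 96.2-fold, Serpinb6b 86.3-fold and Htr7 76.0-fold. DESeq2 lost 7 of these 8 calls, with adjusted p from 0.057 to 0.13, and kept Serpinb6b.

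Among themselves, C1q-expressing cells were not uniform. A mark of 2000 CPM per cell, chosen after the values were seen, split them by Apoe and Cd74. Over the 3 libraries 36 cells were above it for Apoe only, 20 for Cd74 only, 9 for both and 10 for neither. No Apoe UMI was found in all 10 of the Cd74-only cells after filtered air, 1 of 2 after 1 ppm and 5 of 8 after 1.5 ppm. No Cd74 UMI was found in 5 of 11 Apoe-only cells after filtered air and 11 of 25 after 1.5 ppm, and there were none of these cells after 1 ppm. Spearman's rho between the CPM of Apoe and Cd74 was -0.49 over the 75 cells, -0.55 over the 26 filtered air cells and -0.36 over the 43 cells of 1.5 ppm. High Apoe and high Cd74 therefore tended to stand in different cells. Within 2-fold of the mark lay 11 cells for Apoe (5, 0 and 6) and 15 for Cd74 (1, 4 and 10). Median depth was 7816 UMIs in Apoe-only and 8927.5 UMIs in Cd74-only cells.

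**Figure D3:**
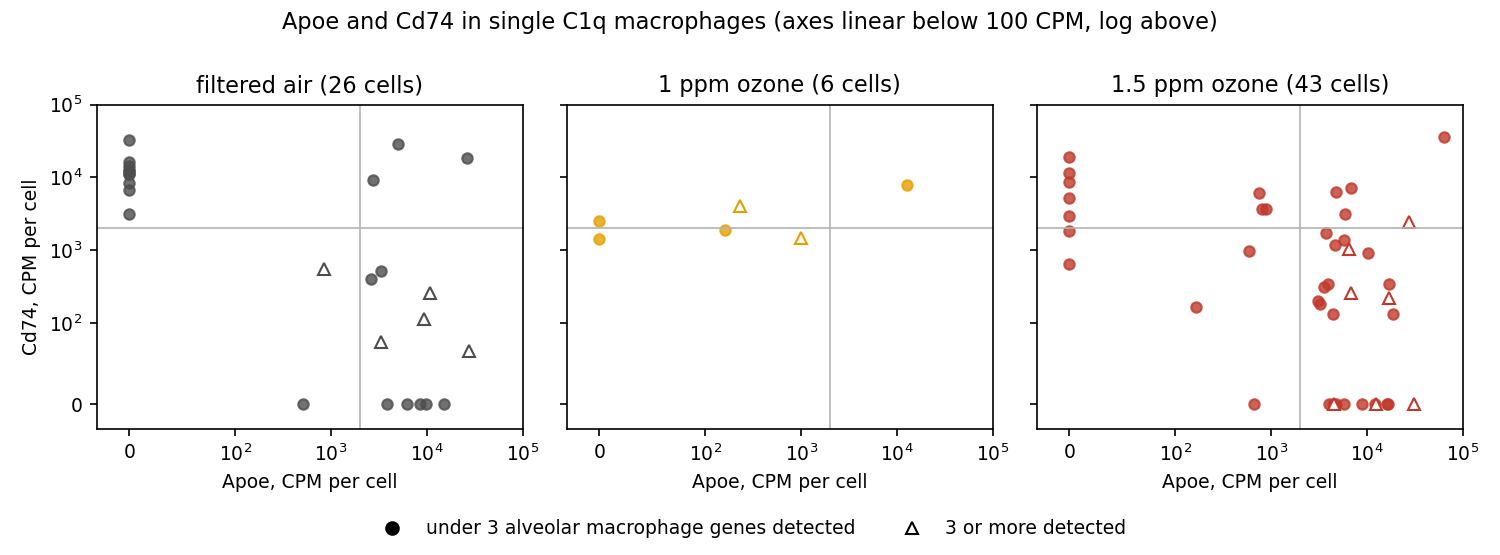
Apoe and Cd74 in each of the 75 C1q-expressing cells as CPM of the cell's own UMIs, 1 panel per library, with lines at 2000 CPM. In filtered air the 10 Cd74-only cells sit at 0 Apoe, and most of the 43 cells at 1.5 ppm (25) are in the lower right, with Apoe only. Triangles are cells with 3 or more alveolar macrophage genes.

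Other genes went with one side or the other, given here as a description of cells chosen by these 2 genes. Pooled over libraries, Ccr2 stood at 170 CPM in Apoe-only and 967 CPM in Cd74-only cells, and S100a4 at 121 and 1051 CPM. Mgl2, a lectin of monocyte-derived and type 2 dendritic cells, stood at 37.1 CPM in Apoe-only and 280 CPM in Cd74-only cells. All 103 UMIs of the chemokine gene Ccl17 in C1q-expressing cells were in Cd74-only cells. On the other side, Spp1 (osteopontin) stood at 860 CPM in Apoe-only and 23.4 CPM in Cd74-only cells, Gpnmb, a glycoprotein of lipid-laden macrophages, at 322 and 4.67 CPM, and Pf4 at 201 and 46.7 CPM. These are single genes, chosen after their values were seen.

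Several macrophage genes were close in both sets of cells. C1qa stood at 2703 CPM in Apoe-only and 2602 CPM in Cd74-only cells, Csf1r at 325 and 318 CPM, C3ar1 at 300 and 308 CPM and Ms4a7 at 452 and 360 CPM. None of the 8 dendritic genes was found in 13 of the 20 Cd74-only cells and in 34 of the 36 Apoe-only cells. Of the C1q-expressing cells, 1 after filtered air and 1 after 1.5 ppm had 2 or more dendritic genes, and both were Cd74-only. Cells with 3 or more alveolar macrophage genes numbered 10 of the 36 Apoe-only and 1 of the 20 Cd74-only cells.

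The 3 pools differed in this mix. Apoe-only cells were 42.3% of C1q-expressing cells after filtered air (11 of 26), 0% after 1 ppm (0 of 6) and 58.1% after 1.5 ppm (25 of 43). Cd74-only cells were 38.5% (10), 33.3% (2) and 18.6% (8). Per cell, median Cd74 was 1847, 2239 and 344 CPM, and median Apoe 2684, 193 and 4510 CPM. With 1 library per dose, these are values of 3 pools.

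Levels in C1q-expressing cells were then compared between each ozone dose and filtered air. A gene was counted at 2-fold or more with at least 30 UMIs over both libraries. At 1.5 ppm, 152 of 3872 genes were higher (3.93%) and 102 lower (2.63%). At 1 ppm, 97 of 2367 were higher (4.1%) and 182 lower (7.69%). Both comparisons share the filtered air library. Ratios are given with exact conditional 95% intervals, which cover counting error only.

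At 1.5 ppm, class II stood low. Cd74 was at 2067 CPM after 1.5 ppm and 6758 CPM after filtered air, a ratio of 0.306 (0.280 to 0.334). H2-Eb1 was at 817 against 2369 CPM (ratio 0.345, 0.298 to 0.399), H2-Aa at 1032 against 2787 CPM (0.370, 0.325 to 0.422) and H2-Ab1 at 934 against 1872 CPM (0.499, 0.431 to 0.576). All 9 measured class II genes were below filtered air and 4 passed 2-fold. Their median log2 ratio was -0.86, against 0.006 over all genes. In alveolar macrophages the same ratios were 1.06 for Cd74, 1.29 for H2-Eb1, 1.21 for H2-Aa and 1.34 for H2-Ab1. These 4 genes were thus below filtered air in C1q-expressing cells and above it in alveolar macrophages of the same libraries, a difference that was not tested.

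The mix of cells differed as well, with Cd74-only cells 10 of 26 after filtered air and 8 of 43 after 1.5 ppm. The mark behind this split was chosen after the values were seen. For Cd74, 1 and 10 cells of these libraries lay within 2-fold of it. Within Cd74-only cells, H2-Aa stood at 4000 CPM after 1.5 ppm (8 cells) and 5554 CPM after filtered air (10 cells), H2-Eb1 at 3527 and 4797 CPM, and H2-Ab1 at 4077 and 3652 CPM. Within Apoe-only cells, H2-Aa stood at 220 CPM after 1.5 ppm (25 cells) and 17.6 CPM after filtered air (11 cells), and H2-Eb1 at 100.3 and 8.78 CPM. The part of the mix in the class II difference was not tested. At 1 ppm all 8 measured class II genes were below filtered air and 3 passed 2-fold. Their median was -0.86, against 0.07 over all genes, and H2-Eb1 at 628 CPM had a ratio of 0.265 (0.197 to 0.351).

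Of 23 genes of lipid-associated macrophages and repair 16 were measured at 1.5 ppm, 13 of them above filtered air, and Spp1 and Gpnmb alone passed 2-fold. The median log2 ratio of the list was 0.21. Spp1 was at 847 CPM after 1.5 ppm and 82.1 CPM after filtered air, a ratio of 10.3 (6.62 to 16.9), against 2.57 in alveolar macrophages. 1 cell held 38.0% of its UMIs at 1.5 ppm and 42.9% in filtered air. Spp1 had a UMI in 15 of 43 cells at 1.5 ppm and 6 of 26 after filtered air, with a median of 0 CPM per cell in both. Gpnmb was at 268 against 62.5 CPM (4.29, 2.5 to 7.83), against 1.11 in alveolar macrophages. Within Apoe-only cells the direction was the same, with Spp1 at 1280 and 87.8 CPM and Gpnmb at 420 and 141 CPM after 1.5 ppm and filtered air. The cells with the most Spp1 UMIs at 1.5 ppm (108, 57, 52 and 40) were all Apoe-only. Both Spp1 ratios thus rest largely on the same few cells.

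Cx3cr1 stood at 200 CPM after 1.5 ppm and 46.9 CPM after filtered air (ratio 4.26, 2.29 to 8.66). Ccr2 stood at 641 and 285 CPM (2.25, 1.72 to 2.97), with a ratio of 1.64 in alveolar macrophages. Both receptor genes were thus above filtered air in C1q-expressing cells. The monocyte list that holds Ccr2 went the other way, with 7 genes measured, 2 above and 5 below filtered air and a median log2 ratio of -0.72. Ccr2 alone passed 2-fold upwards, and Ifitm3, Lst1 and Nr4a1 passed it downwards. Ccr2 also stood high within Cd74-only cells, at 1924 CPM after 1.5 ppm and 539 CPM after filtered air. The monocyte attractant gene Ccl2 was at 152 and 23.5 CPM (6.49, 2.78 to 18.5), from 51 and 6 UMIs, with 1 cell holding 43.1% of them at 1.5 ppm. Of the chemokine list 9 genes were measured, 5 above and 4 below filtered air, 3 of them passed 2-fold upwards, and the median log2 ratio was 0.03.

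Cdkn1a, the p21 brake on the cell cycle, stood at 701 CPM after 1.5 ppm and 203 CPM after filtered air (3.45, 2.54 to 4.75) and was found in 37 of 43 and 16 of 26 cells. In alveolar macrophages its ratio was 1.68. Other higher genes by the naming rule were Psma2, a proteasome subunit (3.09, 1.85 to 5.41) and Zbtb38, a zinc finger repressor (6.87, 2.11 to 35.4; 27 and 3 UMIs). Heat shock genes, which encode protein-folding helpers, numbered 11 measured, of which 10 lay above filtered air and 4 passed 2-fold. Their median log2 ratio was 0.93. Hspd1, the mitochondrial chaperonin, stood at 260 and 109 CPM (2.37, 1.53 to 3.77) and Cacybp, a cofactor of protein degradation, at 203 and 78.2 CPM (2.59, 1.56 to 4.51). Alveolar macrophages had ratios of 1.73 for Hspd1 and 2.23 for Cacybp, in the same direction.

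Beyond class II, the genes low at 1.5 ppm by the naming rule were Hepacam2, Nlrp3, Cd83, Clasp2 and Epb41l4aos. Hepacam2, an adhesion molecule, stood at 53.7 CPM after 1.5 ppm and 293 CPM after filtered air (0.183, 0.103 to 0.309), with 0.296 in alveolar macrophages. Nlrp3, an inflammasome sensor, stood at 29.8 and 180 CPM (0.166, 0.0746 to 0.333), but 1 filtered air cell held 82.6% of its UMIs there. Cd83, which stabilises class II at the cell surface, stood at 113 and 391 CPM (0.290, 0.194 to 0.425), with 54.0% of the filtered air UMIs in 1 cell. Abca1, a cholesterol exporter and target of LXR, stood at 134 and 367 CPM (0.365, 0.25 to 0.527), with 0.569 in alveolar macrophages. In cells of at most 5% mitochondrial UMIs the log2 ratio of Nlrp3 was -0.01 and that of Cd83 -0.996, so the Nlrp3 difference depended on cells above that limit. Median mitochondrial share was 2.33% at 1.5 ppm and 3.61% in filtered air.

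**Figure D4:**
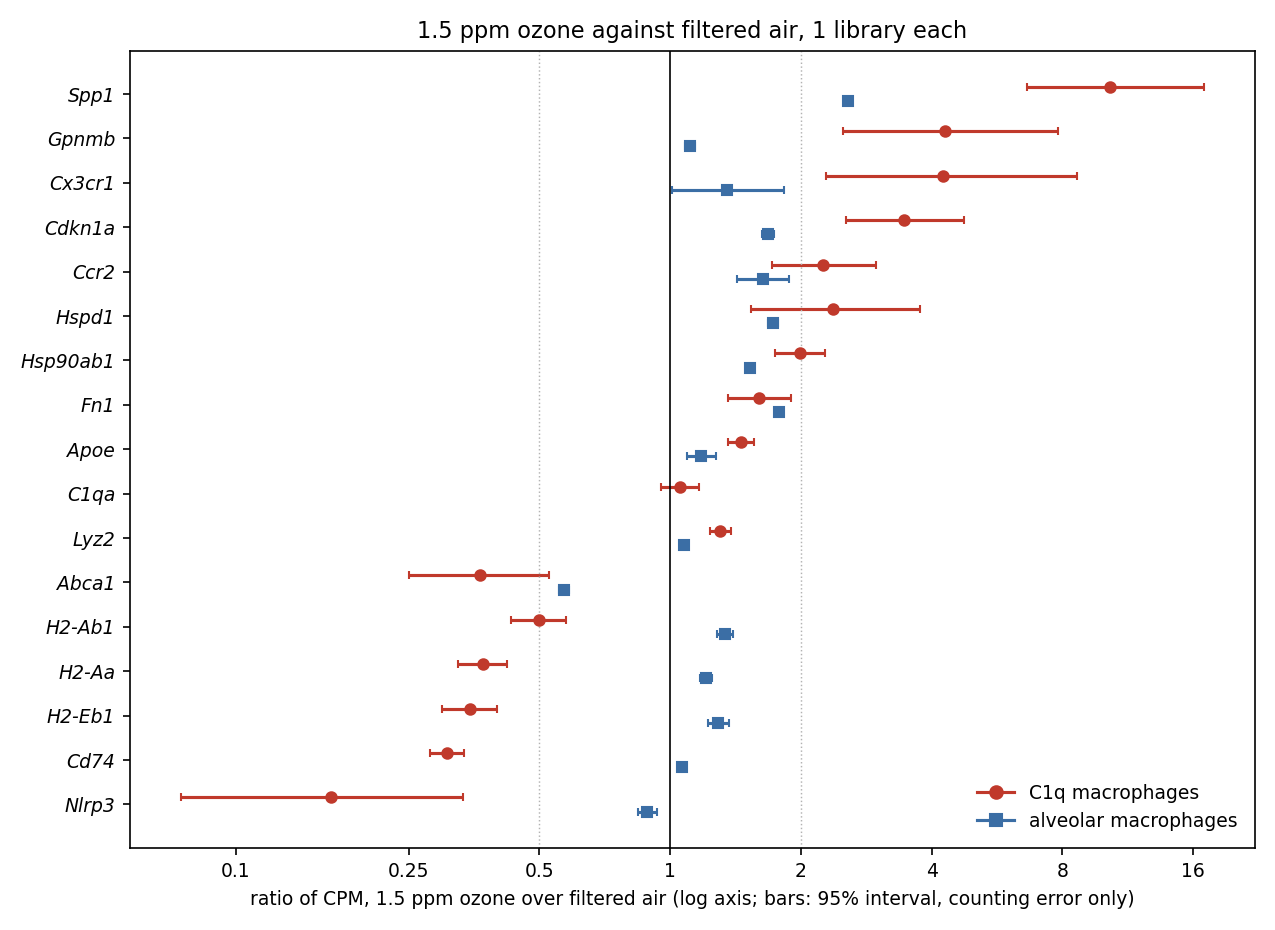
Ratio of CPM at 1.5 ppm over filtered air on a log axis for named genes in C1q-expressing (circles) and alveolar macrophages (squares), with 95% intervals of counting error, 1 library each. Spp1, Gpnmb, Cx3cr1 and Cdkn1a lie right of the squares, and the 4 class II genes lie at or left of 0.5 in C1q-expressing cells and right of 1 in alveolar macrophages.

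The 6 cells of 1 ppm gave values dominated by a single cell. By the naming rule Kynu (7.61, 3.39 to 18.7), Arid5b (4.87, 3.25 to 7.36), Tspan5 (6.50, 3.06 to 14.7), Apobec1 (2.98, 2.12 to 4.19), Arhgap24 (2.69, 1.95 to 3.72) and Tgfbr1 (2.51, 1.93 to 3.25) were higher than in filtered air. In each of them 1 cell held 49.1 to 83.3% of the 1 ppm UMIs. Arid5b, a chromatin regulator, stood at 780 CPM after 1 ppm and 160 CPM after filtered air and was found in all 6 cells. Tgfbr1, a receptor chain for TGF-beta, stood at 1304 and 520 CPM and was also found in all 6.

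Lower at 1 ppm, beside H2-Eb1, were Colec12 (0 UMIs against 55, at least 6.16-fold lower), Samd4 (0 against 33, at least 3.69-fold), Pde4b (0 against 32, at least 3.58-fold), Arhgap6 (1 UMI against 40, ratio 0.0744, 0.00184 to 0.439) and Chil3 (151 against 731 CPM, ratio 0.207, 0.108 to 0.363). 1 filtered air cell held 62.0% of the Chil3 UMIs there, and in cells with under 3 alveolar macrophage genes its log2 ratio was -0.58. At this depth the floor of 3 UMIs was 34.9 CPM in the 6 cells, so genes below that level could not be judged.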

How the data were processed

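The deposited values are raw UMI counts for each gene in each barcode. The submitters' processing notes name Cell Ranger 8.0.0 and build GRCm39 (mm39), and the reads came from 10x Chromium Single Cell 3' v3.1 libraries, per the labels. C1q-expressing cells and the gene lists were chosen with earlier results of these data known. UMIs were summed per class and library and, for genes of at least 20 CPM on average, compared with edgeR 4.0.16 in R 4.3.3 (TMM factors, quasi-likelihood test, library as a block, Benjamini-Hochberg adjustment over all genes tested). DESeq2 1.42.0 was an alternative. The test was checked on simulated counts: against alveolar macrophages, 100% of 50 genes made 4-fold higher and 58% of 50 made 4-fold lower were recovered. At 2-fold, 26% of higher and 12% of lower genes were recovered. Against dendritic-marker cells these shares were 92% and 44% at 4-fold, and 14% and 16% at 2-fold. The simulation gave all genes the same fixed spread and each library the same gene shares, which real sums of few cells need not have. The block pairs classes of 1 library, which come from the same pool of mice. The dendritic comparison left out 1 ppm, which had under 10 C1q-expressing cells. The 9 genes that chose the macrophages, and the 8 dendritic genes in their comparison, were not tested.

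Between doses, with 1 library each, ratios of summed counts carry exact conditional 95% intervals (scipy 1.17.1), and a count of 0 is read against a floor of 3 UMIs. Intervals and floors cover counting error only. Named genes passed the threshold, had at least 100 CPM in the higher class and were ranked by the smallest log2 ratio of any library (15 each way against alveolar macrophages, 8 against dendritic-marker cells). Between doses they had a UMI in at least 20% of cells of the higher library and were ranked by the bound nearest to 1 (6 each way at 1 ppm, 8 at 1.5 ppm). Up to 4 members of each list and genes that stand for a role were also named. No doublet caller was run. Some genes are not reported here.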

Additional observations from a re-analysis of the deposited data

Results flagged for a closer look

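Among the genes ranked by the naming rule for an ozone dose, 9 had ratios over filtered air on opposite sides of 1 in C1q-expressing and in alveolar macrophages, with both 95% intervals apart from 1. Genes outside that ranking, such as H2-Ab1, were not counted. With 1 library per dose, none of these differences was tested. At 1.5 ppm, Cd74 had a ratio of 0.306 in C1q-expressing cells and 1.06 in alveolar macrophages, H2-Eb1 0.345 and 1.29, and H2-Aa 0.370 and 1.21. Zbtb38 had 6.87 in C1q-expressing cells, from 27 and 3 UMIs, and 0.943 in alveolar macrophages. At 1 ppm, where 6 cells were measured, Tspan5 had 6.50 in C1q-expressing cells and 0.95 in alveolar macrophages, Arhgap24 2.69 and 0.973, and Tgfbr1 2.51 and 0.848. Colec12 had 0 UMIs in C1q-expressing cells of 1 ppm, a ratio of 0, and 1.82 in alveolar macrophages. Chil3 had 0.207 in C1q-expressing cells and 1.25 in alveolar macrophages.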

How the results depend on the processing

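No value of a gene ranked by the naming rule changed sign under the alternatives run, but the direction with more calls did. Genes named only from the lists or for a role were not part of this check. Higher genes were 50.9% of the calls against alveolar macrophages, and 43.1% (without a filter on low levels) to 54.1% (cells with 3 or more alveolar macrophage genes) over the alternatives, with 48.2% without TMM factors. Against dendritic-marker cells they were 46.2%, and 59.6% without TMM factors. Of the counts and shares, 79 stayed within 1.5 times of the reported value and 11 did not. Against alveolar macrophages, leaving out 1 library at a time gave 525 to 866 higher and 513 to 867 lower genes, the lowest both without filtered air. C1q-expressing cells with 3 or more alveolar macrophage genes, 14 cells, gave 235 and 199, and without a filter on low levels 1414 genes were lower. Against dendritic-marker cells, DESeq2 called 291 higher and 391 lower. With at least 60 UMIs, which tests fewer genes, 32 were higher and 42 lower at 1 ppm, and 45 higher and 30 lower at 1.5 ppm. Apart from the fewer genes tested and the fewer cells or libraries used, the cause was not tested. Without the library as a replicate block, 816 higher and 782 lower genes were called against alveolar macrophages, and 765 and 843 against dendritic-marker cells. Among genes ranked by the naming rule, 694 values stayed, 25 moved, and 10 calls were lost, all with DESeq2 in the dendritic comparison. The dendritic comparison was not run without a library, since 1 library leaves no residual degrees of freedom. The alternative without cells that carry a dendritic gene was chosen after seeing the data. Depth limits the 1 ppm values most, with 6 cells and 85921 UMIs.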
